A study of Rattus norvegicus with 36 samples.

Results

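White and brown fat transcripts were examined in the thyroid samples of 36 rats. The 8 genes were Adipoq, Lep, Cfd, Fabp4, Cidec and Lipe, which mark white fat or fat cells in general, and Ucp1 and Cidea, which mark brown fat. Every non-control probe annotated to 1 of these symbols was taken, giving 10 of the 30367 probes on the array. Lipe and Cidea each had 2 probes and the other genes had 1.

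The study asked how the rat thyroid responds at the transcript level to 131I, a beta-emitting iodine isotope that the gland accumulates. Adult male Sprague Dawley rats received 131I intravenously, and the thyroid of each rat was hybridised to its own 1-colour Agilent array 24 h later. There were 9 groups of 4 rats, namely 4700, 1300, 760, 340, 260, 170, 88 and 9 kBq and mock-injected controls (0 kBq). The groups were injected one after another, from 9 kBq first up to 4700 kBq, with the controls last. Injection order and activity therefore cannot be told apart. No genetic change or other agent is named for any group, and RNA was not pooled.

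The thyroid lies on the trachea and larynx, surrounded by muscle, cartilage and connective tissue, and rats carry fat depots in the neck. White fat cells store triglyceride in 1 large droplet and secrete hormones, while brown fat cells burn lipid for heat through the mitochondrial uncoupler encoded by Ucp1. In a bulk sample such as these, fewer fat cells and less RNA per fat cell cannot be told apart.

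Promoter sequences were available in the RefSeq table for 6 of the 8 genes, with no entry for Fabp4 and Lipe. Those of Adipoq, Cidec and Ucp1 are shown because Adipoq and Cidec were the pair of transcripts that varied most closely together and Ucp1 was the member that varied most between rats. Each runs 5′ to 3′ along the gene from 250 bases before to 50 bases after the RefSeq start in build GRCr8, with capitals marking the TATA box letters TATAAA, the CCAAT box letters CCAAT, the GC box letters GGGCGG, the nuclear receptor half-site AGGTCA, the C/EBP palindrome TTGCGCAA, the cAMP response element TGACGTCA and its half-site TGACG, searched on both strands. The half-site TGACG is also part of TGACGTCA.
Adipoq promoter, chr11:91240120-91240419, minus strand: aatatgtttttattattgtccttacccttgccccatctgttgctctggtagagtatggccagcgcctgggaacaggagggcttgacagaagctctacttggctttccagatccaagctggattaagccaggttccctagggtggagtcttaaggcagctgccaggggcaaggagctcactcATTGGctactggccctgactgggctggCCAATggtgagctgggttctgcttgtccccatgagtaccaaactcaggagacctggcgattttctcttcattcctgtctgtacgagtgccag
Cidec promoter, chr4:148137066-148137365, minus strand: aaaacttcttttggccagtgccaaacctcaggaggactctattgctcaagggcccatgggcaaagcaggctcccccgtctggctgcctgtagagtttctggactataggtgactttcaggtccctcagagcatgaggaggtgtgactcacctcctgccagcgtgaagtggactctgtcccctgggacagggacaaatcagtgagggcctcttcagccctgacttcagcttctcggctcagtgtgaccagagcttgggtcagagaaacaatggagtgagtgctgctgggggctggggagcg
Ucp1 promoter, chr19:41721372-41721671, minus strand: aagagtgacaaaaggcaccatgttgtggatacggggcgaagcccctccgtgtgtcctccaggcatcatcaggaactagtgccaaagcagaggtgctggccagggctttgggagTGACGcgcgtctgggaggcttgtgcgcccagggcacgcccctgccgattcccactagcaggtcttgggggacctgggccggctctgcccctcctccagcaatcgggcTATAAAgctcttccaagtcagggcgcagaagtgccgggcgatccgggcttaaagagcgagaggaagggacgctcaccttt

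The Ucp1 window held TATAAA beginning 30 bases before the start, a sequence present in 14.2% of all 33469 promoters of this length, and TGACG, present in 21.2% of them. The Adipoq window held CCAAT once on each strand, and 37.5% of all promoters held it. None of the 7 motifs was found in the Cidec window. Among the 6 windows, CCAAT occurred in 3, GGGCGG in 3 (33.1% of all promoters), TTGCGCAA in that of Lep only (0.17%), and AGGTCA (16.2%) and TGACGTCA (1.83%) in none.

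Levels are given as log2 processed signal minus the 75th percentile of the same array, so that 0 is the 75th percentile of that array. Levels of different genes are not compared because probes differ in brightness. All members except Ucp1 and Lep were well above background on all 36 arrays. Ucp1 was well above background on 27 arrays and Lep, the satiety hormone of fat cells, on 9. Over all arrays 62.6% to 91.0% of probes were well above background, the highest share being that of rat 4 at 340 kBq, and 0 spots were saturated.

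Adipoq, which encodes the fat cell hormone adiponectin, was measured in all rats and ranged from -1.95 to 4.30 on the log2 level scale. The controls lay at 3.89, 1.505, 1.60 and 2.76 in rats 1 to 4. At 9 kBq the rats lay at 4.30, 1.39, -1.95 and -0.68, so that the same group held both the highest and the lowest level of the series. At 340 kBq the levels were 1.87, 3.12, 0.60 and 3.904. At 1300 kBq they were -0.06, 3.99, 3.17 and 2.27. At 340 and at 1300 kBq 1 rat lay above every control and 1 rat below every control, with the other rats inside the control range. At 9 kBq 1 rat lay above every control and 3 rats lay below every control.

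The order of the Adipoq group means, from highest to lowest, was controls (2.44 ± 1.12), 340 kBq (2.38 ± 1.45), 1300 kBq (2.34 ± 1.75), 260 kBq (2.25 ± 1.04), 4700 kBq (2.10 ± 0.75), 170 kBq (1.93 ± 1.15), 88 kBq (1.30 ± 1.27), 760 kBq (1.26 ± 0.53) and 9 kBq (0.77 ± 2.73), each as mean ± SD of 4 rats. No neighbours in this order differed beyond their spread. The largest difference from the controls was a log2 ratio of -1.67 with a standard error of 0.99 at 9 kBq (limma, adjusted p = 0.999).

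Cidec, which encodes a protein of the lipid droplet surface in fat cells, followed the same rats. The controls lay at 0.54, -1.72, -1.82 and -0.07. At 9 kBq the levels were 0.56, -1.98, -5.37 and -3.97, and 3 of the 4 rats lay below every control. Its largest log2 ratio was -1.92 with a standard error of 0.99, also at 9 kBq (limma, adjusted p = 0.999).

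Fabp4, the fatty acid carrier of fat cells, ranged from -0.36 to 3.84 over the 36 rats, with a control mean of 2.38 ± 0.89 (SD, n = 4). Its largest log2 ratio was -1.23 with a standard error of 0.76 at 9 kBq (limma, adjusted p = 0.999). Cfd, which encodes the complement protease adipsin, ranged from 2.10 to 5.44, with its largest log2 ratio of -0.86 and a standard error of 0.59 at 760 kBq (limma, adjusted p = 1). Lipe, which encodes hormone-sensitive lipase, varied least of the main probes within groups (SD 0.77), from -4.59 to -1.18, and its largest log2 ratio was -0.45 with a standard error of 0.53 at 4700 kBq (limma, adjusted p = 1). The 2 Lipe probes had a Pearson r of 0.89 over the 36 rats. On the other Lipe probe the largest log2 ratio was -0.43 with a standard error of 0.58, at 760 kBq.

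Lep was well above background in 1 of 4 controls, in 2 rats each at 9, 260 and 1300 kBq, in 1 each at 88 and 340 kBq, and in 0 at 170, 760 and 4700 kBq. No fold change is given for it for that reason. Its highest level, -4.70, was that of rat 4 at 340 kBq, and the lowest signal was -9.04.

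Ucp1 varied far more than the other members. Its level ranged from -8.13, not well above background, to 4.70, and its SD within groups was 4.82, larger than that of 99.9% of all probes. The controls lay at 3.49, -0.92, -7.41 and 4.29. At 340 kBq the levels were -8.13, -1.38, -7.70 and 4.70. At 170 kBq they were 2.71, -0.85, -6.90 and -8.04. Rats near the top of the range and rats at background were thus present among the mock-injected controls and in these irradiated groups.

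At 260 and at 4700 kBq Ucp1 was well above background in all 4 rats. The levels at 260 kBq were 3.05, 1.09, 3.85 and -2.40, and those at 4700 kBq were 1.17, 1.93, -5.58 and 3.32. Their means, 1.40 ± 2.78 and 0.21 ± 3.96 (SD, n = 4), were the highest of the 9 groups, followed by the controls (-0.14 ± 5.36), 88 kBq (-1.71 ± 4.62), 1300 kBq (-2.08 ± 5.31), 9 kBq (-2.38 ± 5.07), 760 kBq (-2.44 ± 4.38), 340 kBq (-3.13 ± 6.06) and 170 kBq (-3.27 ± 5.08). The largest log2 ratio to the controls was -3.13 with a standard error of 3.27, at 170 kBq (limma, adjusted p = 0.996). There 2 of 4 rats, and 3 of 4 controls, had Ucp1 well above background, so this is a fitted value and no measured fold, and its size and its place as the largest rest in part on signals near background. No group's Ucp1 levels lay wholly above or below those of the controls. Most probes were alike in this. Depending on the group, 0.715% to 4.04% of all probes lay wholly above the controls and 0.188% to 0.553% wholly below.

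Cidea, a lipid droplet protein of brown fat cells, was well above background in every rat, the 9 in which Ucp1 was not included. In those 9 rats it lay between -1.999 and 2.15. The controls had 3.88, 0.77, 0.93 and 4.30, and at 1300 kBq the levels were -1.999, 1.81, 3.13 and 2.63. The largest log2 ratio was -1.08 with a standard error of 1.12 at 1300 kBq (limma, adjusted p = 0.84). The 2 Cidea probes had a Pearson r of 0.98 over the 36 rats. These values are those of the main probe. On the other probe the largest log2 ratio was -1.35 with a standard error of 1.23 at 88 kBq, beside -1.33 at 1300 kBq.

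**Figure D1:**
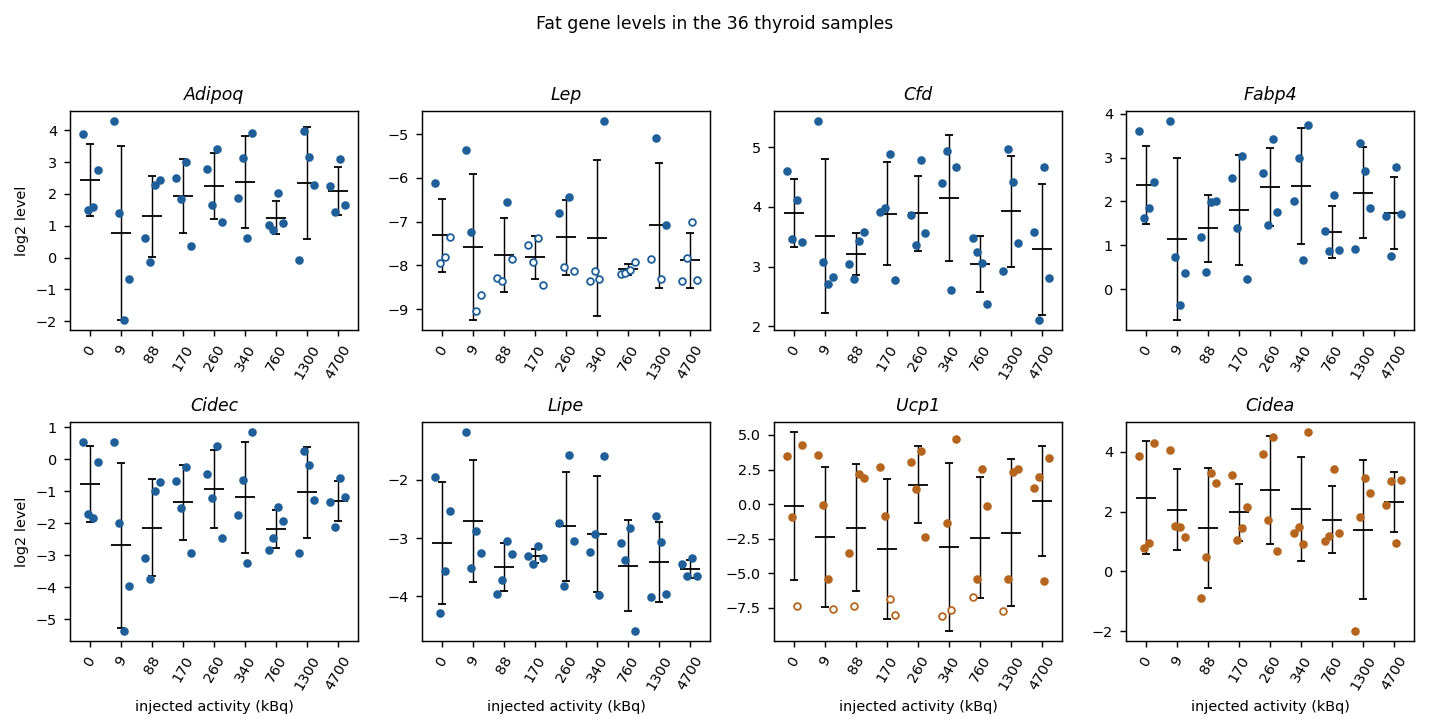
Log2 level of each of the 8 genes (main probe, vertical axis) against injected activity in kBq (horizontal axis), 1 point per rat, with blue for white or general fat genes and brown for Ucp1 and Cidea; open points were not well above background, and bars give the group mean ± SD. The Ucp1 points of the controls run from -7.41 to 4.29, and those at 340 kBq from -8.13 to 4.70.

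None of the 10 member probes was called in any of the 8 comparisons with the controls at a fold change of 1.5 or more with an adjusted p under 0.01 (limma over all 36 arrays). The background was the same, since 0 of 30367 probes, 0%, were called in each comparison. At an unadjusted p under 0.05 no member passed either, while of all probes 3.22% did at 9 kBq, 3.36% at 88 kBq, 2.36% at 170 kBq, 1.12% at 260 kBq, 13.7% at 340 kBq, 1.64% at 760 kBq, 4.18% at 1300 kBq and 1.66% at 4700 kBq. With arrays weighted by how closely each followed its group, Adipoq (log2 ratio -3.45) and Cidec (-3.61) were called at 9 kBq (limma, adjusted p = 0.00897 and 0.0085). That fit, which did not reach its convergence tolerance, called 364 of 30367 probes there, 1.2%. Its weights at 9 kBq were 0.54, 0.30, 1.71 and 3.87 in rats 1 to 4. Rats 3 and 4, which had the lowest Adipoq and Cidec levels of that group, thus weighed most. An F test for any difference among the 9 groups gave an adjusted p of 0.989 for each of the 10 member probes, against 4 probes called in all, 0.0132%. The two-sided exact permutation test of 4 against 4 rats, which cannot go below 0.0286, gave 0.314 for Adipoq at 9 kBq and 0.343 for Ucp1 at 170 kBq.

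**Figure D2:**
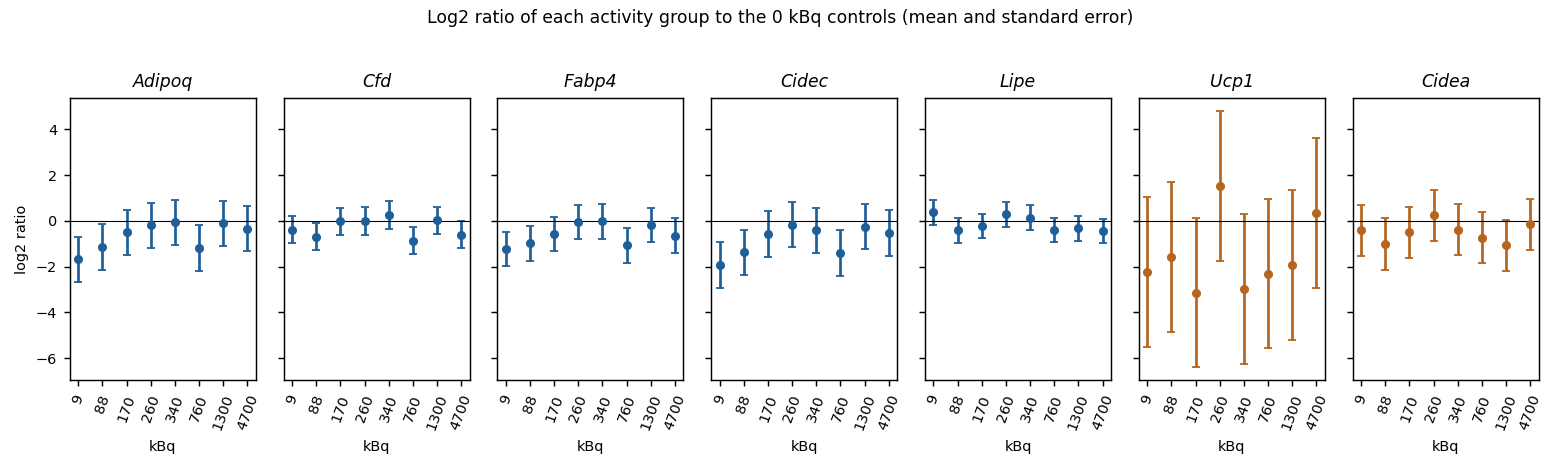
Log2 ratio of each activity group to the 0 kBq controls (vertical axis) against activity in kBq for 7 genes, as the limma estimate with its standard error; Lep is left out because most of its signals were not well above background. The Ucp1 standard error is 3.27 and that of Adipoq 0.99, and no ratio passed the test.

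The white fat genes varied together from rat to rat. All 15 pairs of the 6 white or general fat genes were positively correlated, with Pearson r from 0.57 to 0.98, and passed an adjusted p of 0.05 over 28 pairs (permutation test with 100000 permutations). Adipoq and Cidec had r = 0.98 and Spearman's rho = 0.98 (permutation p = 1e-05 for r, the smallest these permutations can give, adjusted p = 2.55e-05), and r = 0.97 without the 2 rats farthest from the median of Adipoq. Adipoq and Fabp4 had r = 0.95 and rho = 0.96. With Cfd, Adipoq had r = 0.80 and rho = 0.84, and with Lipe r = 0.59 and rho = 0.62. Pairs with Lep rest largely on signals that were not well above background. Removing the group means left the white pairs at r from 0.61 to 0.98, so the relations also held among rats given the same activity. Within the 5 slides the r of Adipoq and Cidec was 0.95, 0.99, 0.98, 0.97 and 0.99.

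Brown and white fat genes were also positively correlated. Of the 12 pairs of 1 white and 1 brown gene, 10 passed the same threshold, with r from 0.17 for Cfd and Ucp1 to 0.68 for Lipe and Cidea. Lipe and Ucp1 had r = 0.39 and rho = 0.43 over all 36 rats (permutation adjusted p = 0.0192). Over all rats this pair did not pass without the 2 rats farthest from the median of Lipe (r = 0.29, permutation adjusted p = 0.108). Nor did it pass without rat 4 at 340 kBq (r = 0.33, permutation adjusted p = 0.0526). Adipoq and Ucp1 had r = 0.58 and rho = 0.63 (permutation adjusted p = 0.000224), and r = 0.55 without the 2 rats farthest from the median of Adipoq. Within slides their r was 0.46, 0.78, 0.07, 0.89 and 0.84. Ucp1 and Cidea had r = 0.78 and rho = 0.83 (permutation adjusted p = 2.55e-05), and r from 0.79 to 0.88 within slides. All pairs with Ucp1 over the 36 rats rest in part on signals near background, since Ucp1 was not well above it in 9.

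The relations of Ucp1 were also taken on either side of the widest step in its levels. This step between neighbouring rats lay between -5.41 and -3.56, with 13 rats below it and 23 above. Among the 23 rats above it, Ucp1 and Cidea had r = 0.97 and rho = 0.95 (permutation adjusted p = 7e-05 over 14 relations), Ucp1 and Cidec r = 0.80 and rho = 0.79 (permutation adjusted p = 7e-05), and Ucp1 and Adipoq r = 0.70 and rho = 0.73 (permutation adjusted p = 0.00135). Without the 2 rats farthest from the Ucp1 median these r were 0.96, 0.69 and 0.59. Above the step Ucp1 also passed with Lipe (r = 0.60), Lep (r = 0.60) and Fabp4 (r = 0.59), each at a permutation adjusted p of 0.00733. For Lipe r was 0.66 without the same 2 rats. With Cfd it did not pass (r = 0.28, permutation adjusted p = 0.307). Of the 13 rats below the step, 9 had no Ucp1 signal well above background. The others did, among them rat 2 at 1300 kBq and rat 3 at 4700 kBq, with Adipoq at 3.99 and 3.11. Below the step the r of Ucp1 with Cidea, Cidec and Adipoq were 0.27, 0.20 and 0.23, and no gene passed. The highest r below the step was 0.57, with Lipe (permutation adjusted p = 0.0835). Whether r differed between the sides was not tested. Over all 27 rats with Ucp1 well above background, r was 0.82 with Cidea, 0.58 with Cidec and 0.48 with Adipoq. Over these rats the pairs with Lipe and Lep did not pass. The higher r above the step thus leave out rats in which Ucp1 was measured.

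**Figure D3:**
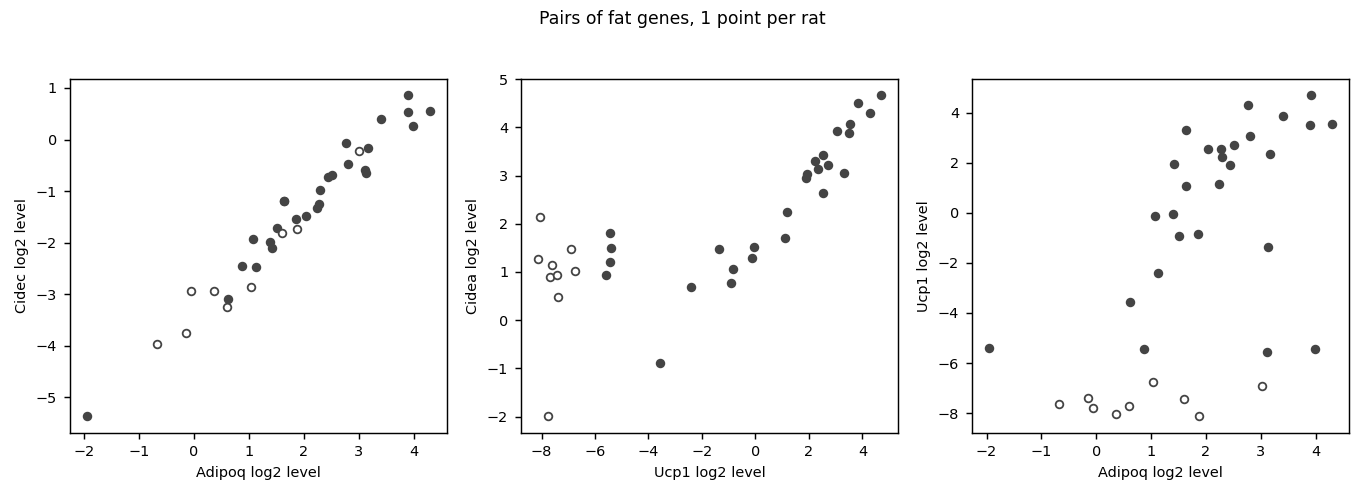
Log2 levels of Cidec against Adipoq, Cidea against Ucp1 and Ucp1 against Adipoq, 1 point per rat (n = 36), with open points where Ucp1 was not well above background. Cidec follows Adipoq along 1 line (r = 0.98), while rats of similar Adipoq level differ widely in Ucp1 (r = 0.58).

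Several rats had much Adipoq and little Ucp1. Rat 2 at 1300 kBq had an Adipoq level of 3.99 and a Ucp1 level of -5.42. Rat 3 at 170 kBq had 3.01 and -6.90, and rat 3 at 4700 kBq had 3.11 and -5.58. In contrast, control rat 1 had 3.89 and 3.49, and rat 4 at 340 kBq had 3.904 and 4.70. These rats are named after their values were seen.

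For white against brown genes in each rat, the mean deviation of each set from its 36-rat medians was taken. White deviations ranged from -1.90 to 2.18 and brown deviations from -5.46 to 4.12. The brown mean is not scaled and follows mostly Ucp1, whose SD within groups was 4.82. That of Cidea was 1.64, near those of Adipoq (1.44) and Cidec (1.45). Both had the same sign in 25 of 36 rats, while 5 rats were above the median in white and below it in brown genes, and 6 were the reverse. Ucp1 was not well above background in 9 of these rats and Lep not in 27, so the sizes rest in part on signals near background, the rat with the lowest difference included. The brown-minus-white difference ranged from -4.53 in rat 1 at 1300 kBq to 3.04 in control rat 4.

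Group means of this difference, given as a description with no test, were 0.09 ± 2.93 in the controls, -0.38 ± 1.57 at 9 kBq, -0.35 ± 2.36 at 88 kBq, -1.32 ± 2.66 at 170 kBq, 1.01 ± 1.52 at 260 kBq, -1.57 ± 2.67 at 340 kBq, -0.48 ± 2.48 at 760 kBq, -1.31 ± 3.47 at 1300 kBq and 0.71 ± 3.06 at 4700 kBq (log2, mean ± SD of 4 rats). Every group held rats above 0 and rats below 0. No group mean lay further from 0 than its own SD.

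**Figure D4:**
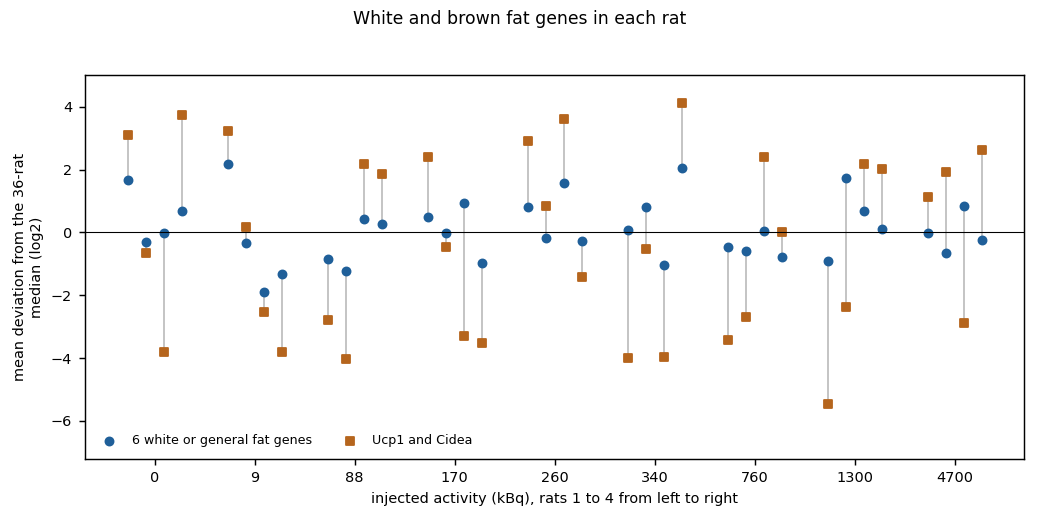
Mean deviation from the 36-rat median (log2, vertical axis) of the 6 white or general fat genes (blue circles) and of Ucp1 with Cidea (brown squares), joined by a grey line for each rat and ordered by activity in kBq. In 25 of 36 rats both lie on the same side of 0, and the brown deviations reach from -5.46 to 4.12.

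The wider fat pathways showed the same lack of calls. None of 24 measured genes of general fat cell and lipid metabolism was called at any activity. At 9 kBq 19 of the 24 had log2 ratios below 0, with a median of -0.62 beside 0.07 for all probes. At 88 kBq it was 21 of 24 with a median of -0.75 (all probes 0.09), and at 760 kBq 21 of 24 with a median of -0.65 (all probes 0.08). At 340 kBq 10 of 24 lay below 0 (median 0.19, all probes 0.31). No gene of this list had an unadjusted limma p under 0.05 at any activity, while 1.12% to 13.7% of all probes did. Genes of the list such as Rbp4, Aqp7, Retn and Adrb3 varied with Adipoq from rat to rat (r from 0.93 to 0.98). The counts are therefore not separate results for each gene. With each gene taken at its largest log2 ratio, the 3 genes that led this list did so at 9 kBq, at -2.17 ± 1.37 for Pck1 (glyceroneogenesis), -2.06 ± 1.499 for Thrsp (a lipogenic regulator) and -1.68 ± 1.30 for Scd (fatty acid desaturation), each with its standard error and limma adjusted p = 0.999. Pck1 was well above background in 3 of 4 rats at 9 kBq and in 4 of 4 controls.

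None of 18 measured brown fat and thermogenesis genes was called. Their median log2 ratio ran from -0.40 at 88 kBq (all probes 0.09), where 14 of 18 lay below 0, to 0.50 at 340 kBq (all probes 0.31), where 14 of 18 lay above 0. The largest ratio was 2.53 for Elovl3, a fatty acid elongase, at 340 kBq, where 1 of 4 rats and 0 of 4 controls had a signal well above background, so that it is no measured fold (standard error 0.86, limma adjusted p = 0.234). Slc27a2, an acyl-CoA synthetase, had -1.69 at 340 kBq (standard error 1.24, limma adjusted p = 0.546). It was well above background in 2 of 4 rats there and in 3 of 4 controls, so this is no measured fold either. Plin5, a lipid droplet protein, had -1.33 at 4700 kBq (standard error 0.93, limma adjusted p = 1). Of the other brown fat markers, Lhx8 was well above background on 35 arrays, Zic1 on 11 and Elovl3 on 7. Cox8b, Cpt1b and Fabp3 of this list are also abundant in muscle.

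The transcripts most like Adipoq over the 36 arrays, of 21862 probes well above background on at least 18 arrays, were those of Rbp4 (retinol transport, r = 0.98), Aqp7 (the glycerol channel of fat cells, r = 0.98), Cdo1 (cysteine oxidation, r = 0.97), Mst1 (r = 0.96), Retn (the hormone resistin, r = 0.95), Slc36a2 (r = 0.94), Mrap (melanocortin receptor accessory protein, r = 0.93), Cyp11a1 (steroid side-chain cleavage, r = 0.93), Adrb3 (the fat cell adrenoceptor, r = 0.93) and Mtarc1 (r = 0.93). Those most like Ucp1 were Letmd1 (r = 0.94), Plin2 (lipid droplet coat, r = 0.90), Pyroxd2 (r = 0.90), Pex6 (peroxisome assembly, r = 0.89), Ppp4r4 (r = 0.88), Irs3 (insulin receptor signalling, r = 0.88), Gys2 (glycogen synthase, r = 0.88), C8h11orf54 (r = 0.87), Odad4 (r = 0.87) and Thrsp (r = 0.86). These r are descriptions over arrays that share slides and scaling. No gene stood in both lists of 10.

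Markers of the thyroid itself also varied widely between samples. The mean level of 8 thyroid follicular genes, among them Tg and Tshr, ranged from -4.91 to 3.56. In control rats 1 to 4 it was 2.97, 1.85, -3.32 and 3.48, where Ucp1 was 3.49, -0.92, -7.41 and 4.29. At 340 kBq it was -3.62, -3.499, -3.72 and 2.53, where Ucp1 was -8.13, -1.38, -7.70 and 4.70. At 9 kBq rat 1 had a thyroid marker level of -4.80 with Ucp1 at 3.55. Follicular genes were low in some samples of both the control and the exposed groups. Slc5a5 was well above background on 29 arrays, Iyd on 22, Nkx2-1 on 35 and Pax8 on 33, and the other 4 genes on all 36.

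The thyroid marker levels left a step from -0.20 to 1.85 with 18 rats on either side, so no r over all rats is given. Ucp1 lay between -8.13 and 3.85 (median -6.17) in the 18 rats below the step and between -0.92 and 4.70 (median 2.27) in the 18 above it. Adipoq lay between -1.95 and 4.30 (median 1.08) below it and between 1.08 and 3.904 (median 2.26) above it. These sides were drawn from the data and were not tested against each other. Among the 18 rats below the step Ucp1 had r = 0.13 and rho = 0.28 with the marker level, and among the 18 above it r = 0.30 and rho = 0.13 (permutation adjusted p = 0.765 and 0.538). Adipoq had r = 0.19 below it and 0.0063 above it. With 11 lists of tissue markers, the thyroid list included, split in the same way, 0 of 34 relations of Adipoq or Ucp1 passed an adjusted p of 0.05 by permutation, 4 had an unadjusted p under 0.05, and the lowest adjusted p was 0.098. Of those 4, 2 were squamous epithelium with Adipoq (r = -0.72, rho = -0.82) and with Ucp1 (r = -0.71, rho = -0.45) in the 13 rats above its step. Without the 2 farthest rats these r were -0.58 and -0.33. The others were fibroblast with Ucp1 (r = -0.44, 35 rats above its step) and endothelium with Adipoq (r = 0.41, 34 rats below its step). The fibroblast step set apart 1 rat and the endothelium step 2, so these r were taken over nearly all rats. Relations within a side leave out differences between the sides of a step. The Ucp1 median was 1.17 in the 23 rats below the squamous step and -6.76 in the 13 above it, which was not tested. The mean of 5 fast muscle markers ranged from -3.42 to 8.29, that of 3 parathyroid markers from -7.78 to 3.95 and that of 3 C cell markers from -7.04 to 4.49. The part of tissue composition in the fat gene levels was not tested.

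**Figure D5:**
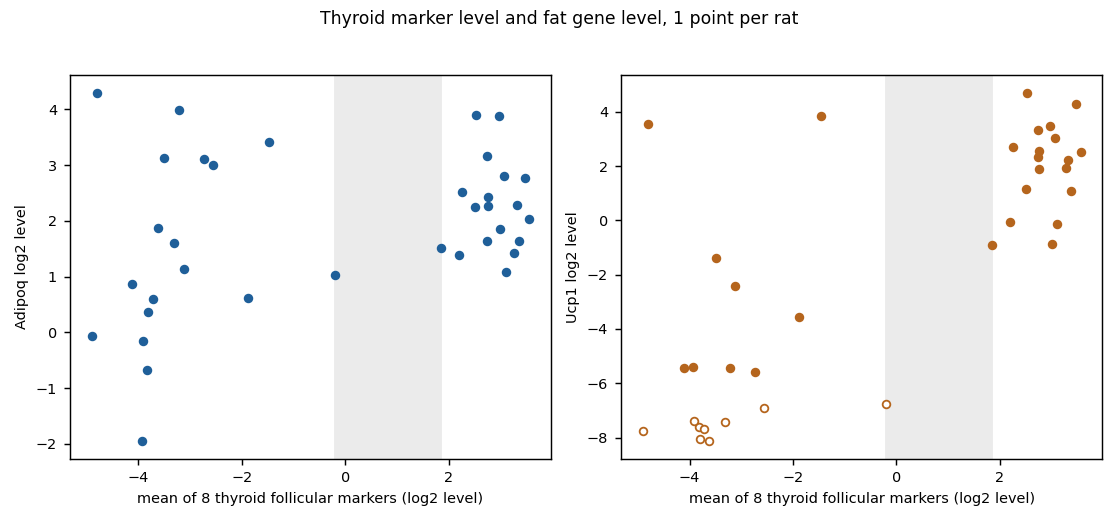
Log2 level of Adipoq (left) and Ucp1 (right) against the mean log2 level of 8 thyroid follicular markers, 1 point per rat (n = 36), with open points where Ucp1 was not well above background and the grey band marking the step from -0.20 to 1.85. The Ucp1 median is -6.17 left of the band and 2.27 right of it, while r within either side is between 0.0063 and 0.30.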

How the data were processed

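RNA of individual thyroids was hybridised to Agilent rat 8x60K 1-colour arrays. The deposited intensity values are the processed signals of Agilent Feature Extraction 10.7.3.1, per the file headers background-subtracted and not scaled between arrays. The authors' own value table, linear intensity, served as an alternative, and the submitters' processing notes name Partek. From the deposited signals, log2 was taken, each array's 75th percentile over non-outlier spots was subtracted and repeated spots were combined as their mean per probe. A probe was well above background where at least 50% of its spots had that scanner call. Probes were named through the transcript or protein identifiers of RefSeq genes (GRCr8), or else their Ensembl identifiers, and 17998 of 30367 matched. The main probe of a gene had the highest mean level.

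Each activity group was compared with 0 kBq with limma 3.58.1 in R 4.3.3, 1 mean per group over 36 arrays and Benjamini-Hochberg adjustment over all probes. Relations used permutation tests in Python 3.11.15, with Benjamini-Hochberg adjustment. The members and lists were chosen with earlier results of these data known. The splits at the widest step and the relations with tissue markers were added after the values were seen. Named pathway genes had the 3 largest absolute log2 ratios of a list, 1 value per gene, and genes like Adipoq or Ucp1 the 10 highest r. 1 gene of the thyroid marker list is not reported here and did not enter its mean. The fit was checked on simulated data. Depth has no meaning for arrays, and the number of rats limits precision.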

Additional observations from a re-analysis of the deposited data

Results flagged for a closer look

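In 5 of 72 combinations of gene and group, 1 rat lay far from the other 3 of its group, with a gap to its nearest neighbour, as a share of the group's whole range, above Dixon's 95% critical value. Chance alone gives such a gap in about 1 in 20 groups. The cause was not tested in any of them. At 340 kBq, rat 4 had the highest Lep level of its group at -4.70 (nearest rat -8.12, gap 0.933 of the range, with Lep not well above background in the other 3 rats) and the highest Cidea level at 4.67 (nearest 1.48, gap 0.848), and its array also had the largest share of probes well above background, 91.0%. At 9 kBq, rat 1 had the highest Cfd level at 5.44 (nearest 3.07, gap 0.870) and the highest Cidea level at 4.08 (nearest 1.53, gap 0.872). At 760 kBq, rat 3 had the highest Cidea level at 3.42 (nearest 1.29, gap 0.883).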

How the results depend on the processing

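Over all alternatives run, member probes were called only with array weights, a fit that did not reach its convergence tolerance: 2 calls, both at 9 kBq, Adipoq (log2 ratio -3.45, limma adjusted p = 0.00897) and Cidec (-3.61, limma adjusted p = 0.0085). Against 0 probes called in each comparison, array weights called 364, 6, 5, 5, 1 and 20 at 9, 88, 170, 340, 1300 and 4700 kBq. Quantile normalization and the authors' value table each called 4, 4, 3 and 4 at 9, 88, 170 and 260 kBq, normexp background correction 2, 2 and 2 at 9, 88 and 4700 kBq, and leaving out dim probes 4 and 3 at 9 and 88 kBq. An adjusted p under 0.05 gave 5, 4, 3 and 6 at 9, 88, 170 and 4700 kBq. An unadjusted p under 0.05 gave 979, 1020, 718, 341, 4152, 499, 1268 and 503 from 9 to 4700 kBq. Leaving out 1 rat in turn gave 0 to 1 calls at 9, 88, 170 and 760 kBq, 0 to 3 at 340 kBq and 0 to 2 at 4700 kBq, none of them a member.

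The sign of small ratios was not stable. The Adipoq log2 ratio at 1300 kBq became 0.027 with median centring and 0.016 with slide as a block, and the Ucp1 ratio at 260 kBq -0.31 with array weights. Leaving out 1 rat in turn, the Adipoq ratio at 9 kBq was -2.85 without rat 1 and -0.77 without rat 3 of that group, and the Ucp1 ratio at 170 kBq ran from -5.56 without control rat 3 to -1.54 without rat 4 of that group. The Adipoq ratio ran from -0.87 to 0.018 at 170 kBq, -0.58 to 0.29 at 260 kBq, -0.57 to 0.53 at 340 kBq, -0.65 to 0.71 at 1300 kBq and -0.67 to 0.15 at 4700 kBq. The Ucp1 ratio ran from -3.99 to 0.32 at 88 kBq, -0.89 to 3.01 at 260 kBq and -2.07 to 2.28 at 4700 kBq, and the Cidea ratio from -1.66 to 0.054 at 1300 kBq. The cause was not tested. Scaling moved the median log2 ratio of all probes at 340 kBq from 0.31 to -0.02 with quantile normalization.

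Rat numbers did not pair the samples: same-numbered rats of different groups had a median correlation of -0.03, as did differently numbered ones. With the replicate number as a block, 0 probes were called in each comparison and Adipoq at 9 kBq stayed at -1.67. All 15 white pairs and the pair of Ucp1 and Cidea kept an adjusted p under 0.05 in every scaling, with group or slide means removed and without rat 4 at 340 kBq, an alternative chosen after seeing the data. Of the other pairs, those of Cfd with Ucp1 or Cidea passed under quantile normalization and the authors' value table (Cfd and Cidea also under normexp, r = 0.34), those of Lep with Ucp1 or Cidea did not pass under normexp, and that of Lipe and Ucp1 did not pass without rat 4 at 340 kBq (r = 0.33). Over the 27 rats with Ucp1 well above background, also chosen after seeing the data, Ucp1 had r = 0.82 with Cidea, 0.58 with Cidec, 0.48 with Adipoq and 0.43 with Fabp4, and no longer passed with Lipe (0.35, permutation adjusted p = 0.0961) and Lep (0.30, permutation adjusted p = 0.155). Among the 23 rats above the step in Ucp1, the pairs with Lipe and Lep did pass (permutation adjusted p = 0.00733 over 14 relations). The brown-minus-white differences moved by less than their SD in each alternative.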
